A study of Mus musculus with 18 samples.

Results

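The genes described are 10 receptors for dopamine, noradrenaline and adrenaline, taken by their symbols from a table of 48440 genes. They comprise the dopamine receptors Drd1, Drd5, Drd2 and Drd4, the alpha-1 receptors Adra1a, Adra1b and Adra1d, the alpha-2 receptors Adra2a and Adra2c, and the beta receptor Adrb1. RNA was sequenced from Diversity Outbred mice, an outbred stock that descends from crosses among several inbred founder strains, so each animal has its own genotype. Mice were labelled high performing or low performing in a study of short-term memory, and each performance class gave 3 libraries from the prefrontal cortex (PFC), 3 from the tissue labelled MDTH and 3 from the tissue labelled HPF. The labels name no treatment. Age, sex, the memory test and what MDTH and HPF stand for are not stated there either. The 6 groups were therefore PFC high, PFC low, MDTH high, MDTH low, HPF high and HPF low, 18 libraries in all. Bulk RNA was measured, so fewer cells of a type and less RNA per cell cannot be told apart in any value below.

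Catecholamine receptors sit in the cell membrane and pass their signal to G proteins. D1-like receptors (Drd1, Drd5) and beta receptors raise cyclic AMP, D2-like receptors (Drd2, Drd3, Drd4) and alpha-2 receptors lower it, and alpha-1 receptors act through phospholipase C and calcium. In the prefrontal cortex, D1 and alpha-2A signalling are widely studied for their part in working memory. Alpha-2 and D2 receptors also act on catecholamine neurons themselves, where they restrain transmitter release.

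The 10 genes lie on 8 chromosomes of mouse build GRCm38 in the GENCODE M21 annotation, and all are protein coding. Adra1b (ENSMUSG00000050541) spans chromosome 11, 43774606 to 43901210, on the minus strand, and Adra1d (ENSMUSG00000027335) spans chromosome 2, 131545850 to 131562283, on the minus strand. Adra2a (ENSMUSG00000033717) is a single-exon gene on chromosome 19, 54044151 to 54048982, and Adra2c (ENSMUSG00000045318) a single-exon gene on chromosome 5, 35278319 to 35281763, both on the plus strand. Adra1d and Drd5 each overlap an annotated antisense gene, Gm14285 and Gm26560. It is not stated whether the counting used strand. The values of Adra1d and Drd5 are uncertain to that extent.

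RefSeq promoter sequences (GRCm38.p6, 250 bases before to 50 after the start) were held for 8 of the 10 genes. The upstream parts of 4 are shown as examples, picked after their values were seen, of genes that were high in different tissues: Adra1b and Drd2 were higher in MDTH than in PFC and HPF, Drd1 was lower there, and Adrb1 was lower in HPF. Capitals mark matches to a GC box (GGGCGG) or a CCAAT box (CCAAT) on either strand, and each sequence reads 5′ to 3′ on the gene's own strand, the plus strand for Drd2 and Adrb1 and the minus strand for Adra1b and Drd1.
Adra1b (chr11:43901238-43901487, 250 bases): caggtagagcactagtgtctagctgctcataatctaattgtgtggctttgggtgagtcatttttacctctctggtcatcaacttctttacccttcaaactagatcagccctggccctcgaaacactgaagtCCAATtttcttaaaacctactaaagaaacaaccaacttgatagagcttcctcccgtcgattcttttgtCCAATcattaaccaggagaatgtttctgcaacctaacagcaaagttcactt
Drd1 (chr13:54055706-54055908, 203 bases): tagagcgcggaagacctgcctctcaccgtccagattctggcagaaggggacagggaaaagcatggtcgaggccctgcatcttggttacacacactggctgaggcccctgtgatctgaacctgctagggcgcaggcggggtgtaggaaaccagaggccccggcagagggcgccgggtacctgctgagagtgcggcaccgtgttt
Drd2 (chr9:49340153-49340402, 250 bases): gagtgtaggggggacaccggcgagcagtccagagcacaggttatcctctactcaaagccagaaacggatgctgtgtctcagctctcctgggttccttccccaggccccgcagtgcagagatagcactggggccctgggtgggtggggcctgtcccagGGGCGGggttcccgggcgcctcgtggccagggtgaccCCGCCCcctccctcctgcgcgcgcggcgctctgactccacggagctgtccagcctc
Adrb1 (chr19:56721867-56722116, 250 bases): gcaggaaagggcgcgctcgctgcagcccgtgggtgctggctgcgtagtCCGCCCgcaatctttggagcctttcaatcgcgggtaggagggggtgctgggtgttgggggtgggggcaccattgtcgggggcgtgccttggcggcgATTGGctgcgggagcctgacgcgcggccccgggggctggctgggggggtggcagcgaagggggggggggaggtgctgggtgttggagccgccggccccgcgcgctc
GC made up 41.6% of the Adra1b window, 62.6% of the Drd1 window, 68.8% of the Drd2 window and 74.0% of the Adrb1 window. The mean over all 32851 RefSeq promoters was 53.2% for 250 bases and 52.5% for 203 bases. The Adra1b window held 2 CCAAT boxes and no GC box, the Drd2 window 2 GC boxes and no CCAAT box, and the Adrb1 window 1 of each. A GC box stood in 32.7% and a CCAAT box in 33.8% of all 250-base windows. None of the 4 windows held a cyclic AMP response element (TGACGTCA, in 1.55% of all 250-base windows), a TATA box (TATAAA, 12.4%), an E-box (CACGTG, 6.02%) or a TCF motif (ATCAAAG, 3.21%), searched on both strands. The Drd1 window matched none of the 6 motifs. For Adra1b and Drd1 the table held 2 starts, and the one farthest upstream was used. Bases inside annotated exons were left out, which shortened the Drd1 window. A match describes letters only, and no binding was measured.

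Totals per library ran from 50828589 to 59634490 normalized counts. Depth, estimated from the lowest values, was 41156227 to 48838302 reads in PFC and 42941006 to 47535113 in MDTH, and 76705451 to 88633852 in HPF. Tissue labels fitted the marker lists: 9 of 10 thalamic relay markers were higher in MDTH than in HPF, 8 of the 9 with a mean of at least 10 in both tissues were higher in MDTH than in PFC, and 8 of 9 hippocampal markers were higher in HPF than in PFC. Some libraries stood apart. HPF high replicate 2 held 2984 normalized counts of Tcf7l2 and 3954 of Slc17a6, relay markers that reached at most 301 and 392 in the other HPF libraries. It also held a summed choroid plexus level of 158147 normalized counts, against 4093 to 8637 in the other HPF libraries. In PFC, that sum was 73867 to 144137 in high replicate 1, low replicate 2 and low replicate 3 and 1806 to 4472 in the others. In PFC and MDTH, the names of the high and low libraries were written in different styles, so handling and performance cannot be told apart there. In HPF, 2 high libraries were named for lane 3, 2 low libraries for lane 5, and 1 of each for lane 4. No PFC or MDTH library was named for any of these lanes. Lane, naming and depth therefore cannot be told apart from tissue wherever HPF is compared with PFC or MDTH.

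The leading receptor was Adra1b in MDTH and Adra1d in HPF, while PFC had no single leader. Levels were compared between genes per kilobase of exon, as normalized counts per kb, and between tissues as log2 differences in 1 fit to all libraries. Adra1b led in MDTH at 1218 ± 524 normalized counts per kb (SD, n = 6), above the range of every other member. In HPF, Adra1d led at 1152 ± 334 (SD, n = 6), again above every other member's range. In PFC, Adra1b at 582 ± 109 and Adra1d at 543 ± 184 (SD, n = 6 each) overlapped, as did Adrb1 at 373 ± 92.7 and Drd1 at 302 ± 61.6 after them. Drd4, a D2-like receptor, was lowest in all 3 tissues, at 1.44 ± 1.62, 3.67 ± 1.61 and 4.45 ± 2.19 normalized counts per kb in PFC, MDTH and HPF. Below them, the order of the remaining members in PFC was Adra2a, Adra2c, Adra1a, Drd5 and Drd2. It was Adrb1, Drd2, Drd5, Adra2a, Adra1d, Adra1a, Drd1 and Adra2c in MDTH below Adra1b, and Adra2c, Drd5, Adrb1, Drd1, Adra2a, Drd2, Adra1b and Adra1a in HPF below Adra1d. All other neighbours in these orders overlapped, apart from Drd4, which lay below its neighbour's range in PFC and HPF. Exon length was the union over all transcripts, which lowers the per-kb value of a gene such as Adra1a, with 8728 exon bases over 5 coding transcripts.

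**Figure D1:**
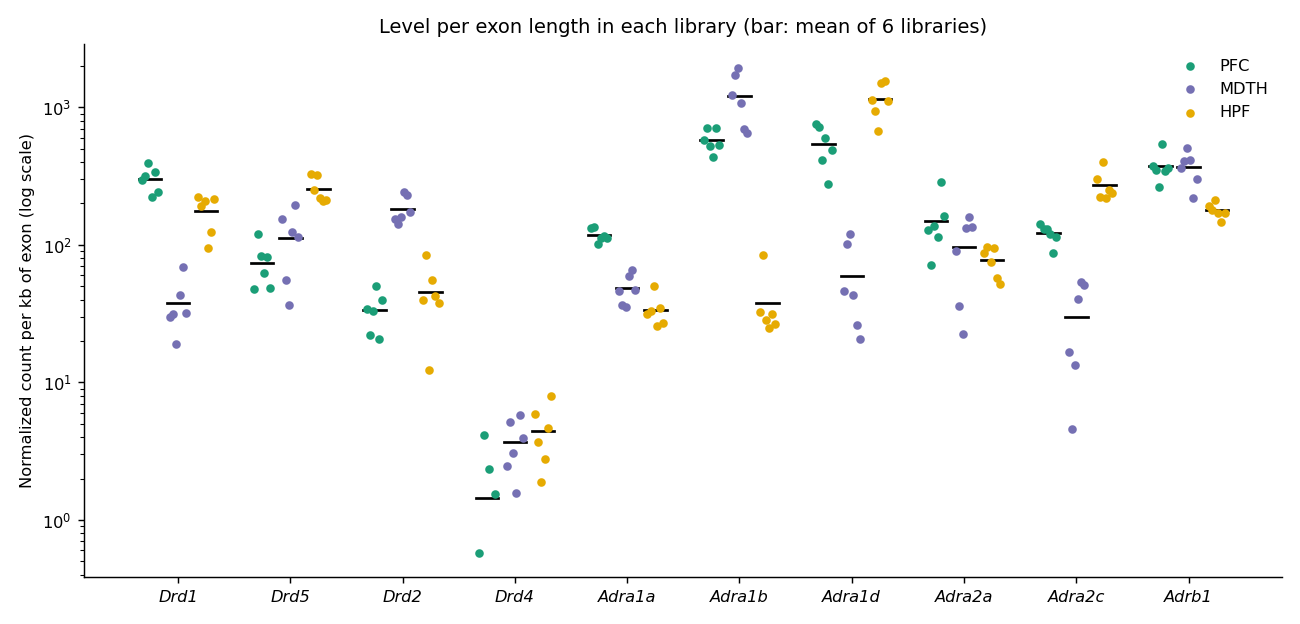
Normalized counts per kb of exon (log scale) for the 10 receptors in each library of PFC, MDTH and HPF, with a bar at the mean of 6 libraries; libraries at 0 are not drawn. Adra1b spans the tissues from a mean of 37.9 in HPF to 1218 in MDTH, and Adra1d from 59.6 in MDTH to 1152 in HPF.

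The alpha-1 receptors divided the tissues most sharply. Adra1b held 2194 to 6506 normalized counts in MDTH (median 3912), 1478 to 2408 in PFC (median 1880) and 83.6 to 285 in HPF (median 101). All MDTH and PFC libraries thus lay above all HPF libraries, and the highest HPF library was high replicate 2. The log2 difference was 5.03 between MDTH and HPF (SE 0.23, adjusted p = 7.57e-11), and it was 5.27 without that library. HPF was lower than PFC by 16.6-fold (log2 difference -4.06, SE 0.23, adjusted p = 2.66e-09). Adra1b was also higher in MDTH than in PFC, by 0.97 (SE 0.23, adjusted p = 0.00337), a difference of 0.52 with an adjusted p of 0.137 among low performers alone. Adra1d ran the other way. It held 1279 to 2944 normalized counts in HPF (median 2126), 526 to 1432 in PFC (median 1031) and 39.5 to 228 in MDTH (median 84.4), and no MDTH library reached the level of any other tissue. It was 22.5-fold lower in MDTH than in HPF (log2 difference -4.50, SE 0.27, adjusted p = 1.18e-09) and 10.5-fold lower than in PFC (-3.39, SE 0.27, adjusted p = 5.47e-08). Adra1a, at 889 to 1174 normalized counts in every PFC library, was higher in PFC than in MDTH (308 to 576) and HPF (224 to 437), with log2 differences of -1.31 for MDTH against PFC (SE 0.14, adjusted p = 1.13e-06) and -1.83 for HPF against PFC (SE 0.14, adjusted p = 4.19e-08).

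Within the alpha-1 subfamily, Adra1b therefore made up 91.4% ± 1.77 of the transcripts per kb in MDTH (SD, n = 6) and Adra1d 93.5% ± 3.40 in HPF. In PFC the share was split between Adra1b at 47.4% ± 9.40 and Adra1d at 43.0% ± 9.87. Adra1a stayed between 3.09% in HPF and 9.57% in PFC.

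Of the alpha-2 receptors, Adra2c followed Adra1d. It held 759.6 to 1373 normalized counts in HPF (median 842), 302 to 491 in PFC (median 431) and 15.8 to 184 in MDTH (median 98.6), so the 3 tissues did not overlap. It was 11.9-fold lower in MDTH than in HPF (log2 difference -3.57, SE 0.24, adjusted p = 4.66e-09) and 5.34-fold lower than in PFC (-2.42, SE 0.24, adjusted p = 6.72e-07). Adra2a, the alpha-2A receptor, overlapped between all 3 tissues, with 346 to 1374 normalized counts among PFC libraries, 109 to 774 among MDTH libraries and 252 to 467 among HPF libraries. Its log2 difference was -0.83 for MDTH against PFC (SE 0.30, adjusted p = 0.0384) and -0.87 for HPF against PFC (SE 0.30, adjusted p = 0.0279). The first call was lost in 8 and the second in 6 of 12 fits that left out 1 library. Without PFC low replicate 2, which held 1374, the adjusted p was 0.0973 and 0.0731. Adra2b, a related receptor outside the 10, was largely an MDTH transcript, at 398 to 1635 normalized counts there and 3.73 to 16.3 in PFC. In HPF it held 94.1 in high replicate 2 and at most 8.25 in the other libraries.

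Of the dopamine receptors, Drd1 and Drd2 had opposite tissue patterns. Drd1 held 815 to 1422 normalized counts in PFC (median 1114), 344 to 812 in HPF (median 727) and 69.4 to 251 in MDTH (median 115). The ranges did not overlap, though HPF high replicate 1 came within 3 normalized counts of the lowest PFC library. It was 8.50-fold lower in MDTH than in PFC (log2 difference -3.09, SE 0.22, adjusted p = 1.16e-08) and 4.82-fold lower than in HPF (-2.27, SE 0.22, adjusted p = 2.34e-07). Drd2 held 359 to 616 normalized counts in MDTH (median 424), 52.4 to 128 in PFC (median 85.7) and 31.4 to 215 in HPF (median 104), and every MDTH library lay above every other. The 215 in HPF was high replicate 2, the library with thalamic markers, and the next HPF value was 141. The log2 difference of Drd2 was 2.48 for MDTH against PFC (SE 0.35, adjusted p = 2.92e-05) and 2.18 for MDTH against HPF (SE 0.35, adjusted p = 6.16e-05). Drd5, the second D1-like receptor, was highest in HPF at 661 to 1036 normalized counts (median 736), above all PFC libraries at 151 to 381 and all MDTH libraries at 115 to 610.1. Its log2 difference was 1.84 for HPF against PFC (SE 0.30, adjusted p = 0.000116) and -1.37 for MDTH against HPF (SE 0.30, adjusted p = 0.000996), the second at -0.61 with an adjusted p of 0.0621 among low performers alone. As a result Drd1 gave 80.5% ± 4.81 of D1-like transcripts per kb in PFC (SD, n = 6), 40.2% ± 6.60 in HPF and 26.9% ± 7.57 in MDTH. Drd2 gave 84.7% to 93.6% of the D2-like transcripts in the 3 tissues.

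Drd4 was near the limit of detection, at 0 in 2 of 6 PFC libraries and at most 26.7 normalized counts in any library. Its mean of 4.87 ± 5.49 normalized counts in PFC (SD, n = 6) was under the filter on low values, and it entered the fit to all libraries through MDTH, at 12.4 ± 5.45, and HPF, at 15.1 ± 7.40. Its differences from PFC are therefore given as levels only. Adrb1, the main beta receptor of the forebrain, held 498 to 717 normalized counts in HPF and was lower there than in PFC (-1.04, SE 0.16, adjusted p = 5.39e-05) and in MDTH, where the log2 difference of MDTH against HPF was 1.00 (SE 0.16, adjusted p = 4.31e-05). Between MDTH at 743 to 1706 and PFC at 891 to 1843 the log2 difference of Adrb1 was -0.03 (95% interval -0.36 to 0.30).

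Leaving out Drd4, 7 of the 9 members differed between MDTH and PFC, 2 higher and 5 lower in MDTH, where 40.7% of the 18254 genes tested did (20.3% higher and 20.4% lower). Between MDTH and HPF 8 of the 10 members differed, 4 in each direction, against 58.1% of all genes (29.1% higher and 29.0% lower). Adra1a was higher in MDTH than in HPF by 0.52 (SE 0.14, adjusted p = 0.00393). Among high performers alone, that difference was 0.07 with an adjusted p of 0.820. Between HPF and PFC, again leaving out Drd4, 8 of 9 members differed, 3 higher and 5 lower in HPF, against 45.5% of all genes (21.8% higher and 23.7% lower). Among high performers alone, HPF minus PFC did not pass for Adra1d (0.55, adjusted p = 0.307), Adra2a (-0.33, 0.638) or Adra2c (1.15, 0.0674). Among low performers alone, it did not pass for Drd1 (-0.96, 0.0587). Numbers in the library names recur across tissues, and a fit with that number as a block kept 6 of these calls for MDTH against PFC (lost was Adra2a, -0.57, adjusted p = 0.271) and 7 for MDTH against HPF (lost was Drd5, -1.15, adjusted p = 0.106). Among low libraries, MDTH and PFC share only number 130, MDTH and HPF only 163, and HPF and PFC none. For HPF against PFC that fit kept 3, Drd1, Adra1a and Adra1b. The others had log2 differences of 1.53 for Drd5 (adjusted p = 0.157), 1.30 for Adra1d (0.117), -0.44 for Adra2a (0.565), 0.82 for Adra2c (0.342) and -0.75 for Adrb1 (0.0510) in that blocked fit, which left 4 residual degrees of freedom in place of 12.

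**Figure D2:**
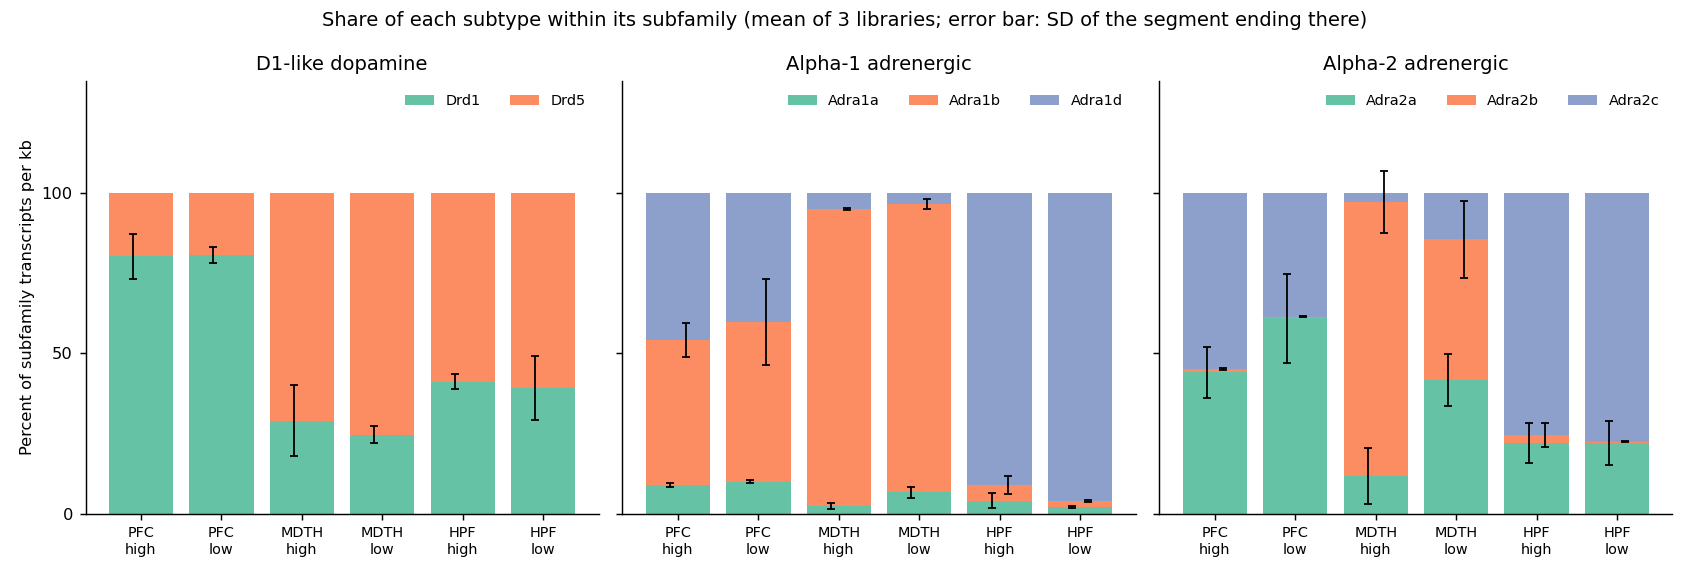
Percent of the D1-like, alpha-1 and alpha-2 transcripts per kb of exon given by each subtype, in the 6 groups (mean of 3 libraries, error bars SD of the segment ending there). Adra1b fills the alpha-1 bar in MDTH and Adra1d in HPF, and within MDTH the Adra2b share is 85.6% in high and 43.8% in low performers.

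In MDTH, high and low performers differed in 4 of the 10 receptors. Adra1b and Adra1d were higher in high performers, and Adra2a and Adra2c were lower. Of all 17861 genes tested in MDTH 25.0% passed, 12.5% in each direction, so many genes outside these families differed too. The median log2 difference of the members was -0.52, and that of all genes -0.0031. Groups did not overlap for 7 of the 10 members, against 44.2% of all genes. High libraries were above in 2 of them (22.2% of all genes) and low libraries in 5 (22.0% of all genes).

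Adra1b held 4176, 5832 and 6506 normalized counts in the MDTH high libraries and 3648, 2354 and 2194 in the low libraries. Every high library lay above every low library, and low replicate 1 came nearest. The means were 5505 ± 1199 and 2732 ± 797 (SD, n = 3 each), and the log2 difference was 1.02 (SE 0.23, adjusted p = 0.0208). Adra1d held 87.3, 193 and 228 in high and 81.5, 49.6 and 39.5 in low libraries. The groups were apart by the small gap between high replicate 1 and low replicate 1, and the mean was 2.98-fold higher in high performers (log2 difference 1.51, SE 0.44, adjusted p = 0.0458). The third alpha-1 receptor, Adra1a, did not pass: it held 404, 318 and 308 in high and 522, 576 and 412 in low libraries, a log2 difference of -0.55 (SE 0.19, adjusted p = 0.0696), with every low library above every high one. Adra1a did pass without high replicate 1 (-0.67, adjusted p = 0.0493) and in the fit to all 18 libraries (-0.55, adjusted p = 0.0436).

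Adra2c held 57.2, 15.8 and 45.8 normalized counts in the MDTH high libraries and 140.0, 184 and 177 in the low libraries. All low libraries were above 2 times the highest high library. The mean was 4.22-fold higher in low performers, and the log2 difference of -2.22 (SE 0.48, adjusted p = 0.0179) was the largest among the 10 receptors in MDTH. Adra2a held 436, 174 and 109 in high and 641, 774 and 653 in low libraries, so its groups did not overlap either. Its log2 difference was -1.76 (SE 0.46, adjusted p = 0.0320), 2.88-fold between the means. Adra2b, the alpha-2 receptor outside the 10, ran the opposite way, with 1240.4, 1535 and 1635 in high and 938, 555 and 398 in low libraries (log2 difference 1.30, SE 0.30, adjusted p = 0.0212). Within the alpha-2 subfamily, Adra2b thus made up 85.6% ± 9.76 of transcripts per kb in MDTH high and 43.8% ± 12.0 in MDTH low libraries (SD, n = 3 each). The share of Adra2a was 11.8% ± 8.77 and 41.8% ± 8.04, and that of Adra2c 2.69% ± 1.48 and 14.4% ± 4.07.

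No dopamine receptor passed in MDTH, but Drd2 and Drd5 each did in 1 alternative fit. Drd2 held 389.8, 359 and 403 normalized counts in high and 616, 583 and 444 in low libraries, without overlap, and a log2 difference of -0.50 (SE 0.16, adjusted p = 0.0632). With libraries scaled to equal totals, Drd2 passed at -0.56 (adjusted p = 0.0404). Drd1 held 109, 114 and 69.4 in high and 157, 251 and 115 in low libraries. Its groups were apart by about 1 normalized count between 114 and 115, and its log2 difference was -0.79 (SE 0.35, adjusted p = 0.140). Drd5 held 489, 174 and 115 in high and 388, 610.1 and 360.1 in low libraries (-1.04, SE 0.51, adjusted p = 0.178). High replicate 1 lay inside the low range there, and without it Drd5 passed at -1.63 (adjusted p = 0.0154). Drd4, at 5.32 to 19.6 in the 6 libraries, had a log2 difference of 0.02 with a 95% interval from -1.41 to 1.46. The beta receptor Adrb1 held 1233, 1368 and 1706 in high and 1408, 743 and 1022 in low libraries (0.48, SE 0.24, adjusted p = 0.183).

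With 3 libraries a group, single libraries decided most of the MDTH calls. Adra1b passed no longer without high replicate 2 or 3 or low replicate 2 or 3, at log2 differences of 0.88 to 0.97 and adjusted p of 0.0646 to 0.0758. Adra1d was lost without the same 4 libraries (1.25 to 1.45, adjusted p of 0.116 to 0.139) and also without the filter on low values (adjusted p = 0.0587). Adra2a was lost without any 1 library other than high replicate 1 (-1.81 to -1.32, adjusted p of 0.0651 to 0.0949). Adra2c was lost without low replicate 2 (-2.15, adjusted p = 0.0601) or low replicate 3 (-2.18, adjusted p = 0.0679) and kept in the 13 other alternatives run. Fitted without the variance trend, Adra1b (0.0542), Adra1d (0.0728) and Adra2a (0.0683) did not pass by adjusted p. The direction was the same for these 4 genes in all 15 alternatives.

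**Figure D3:**
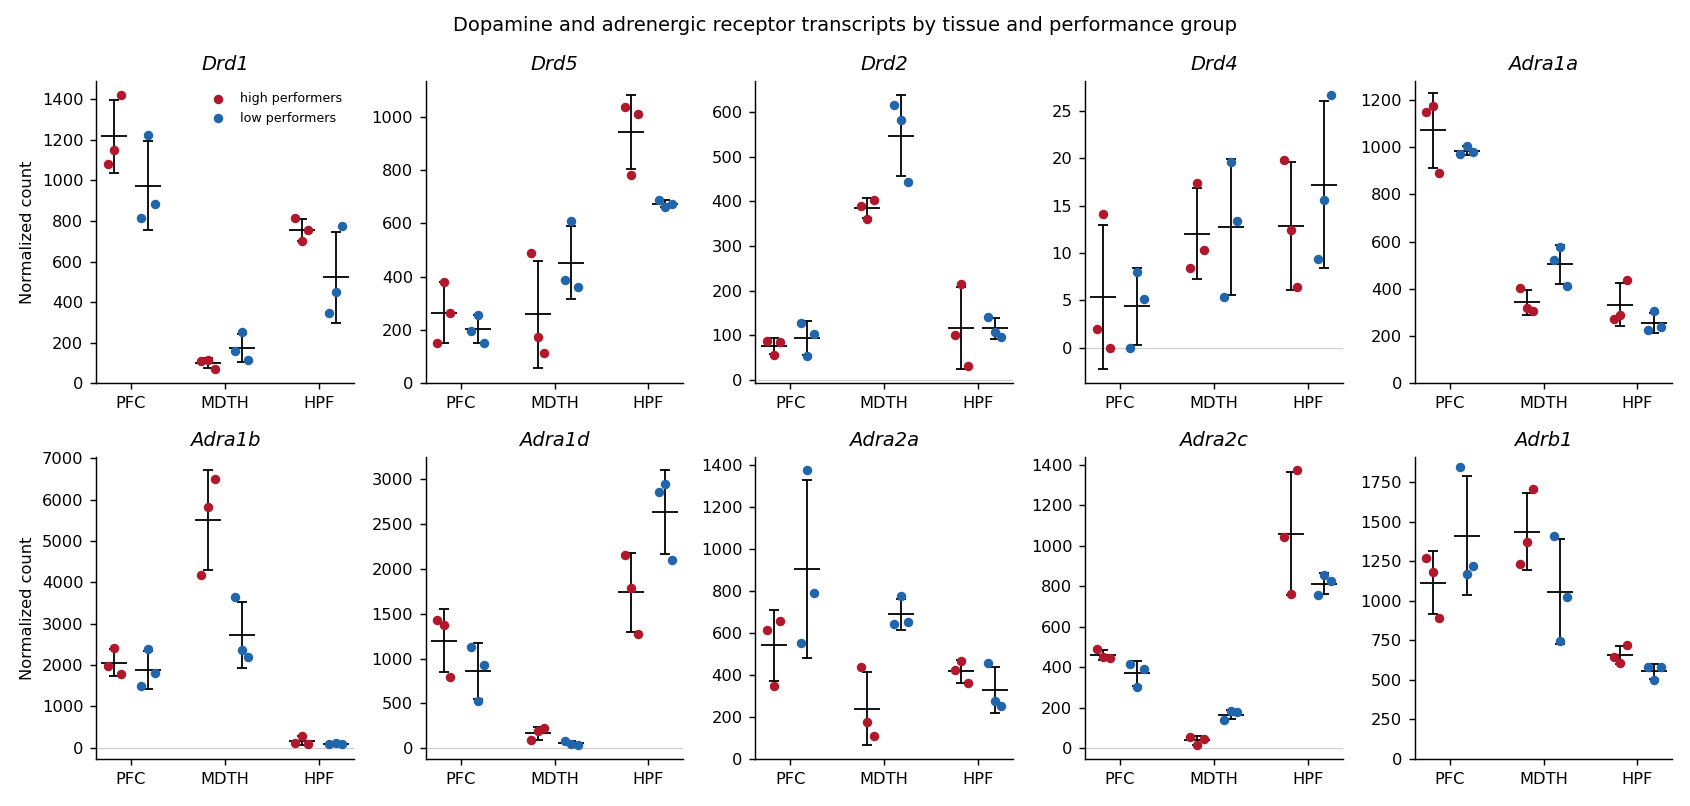
Normalized counts of the 10 receptors in each library, high performers in red and low performers in blue; horizontal bars show the mean and vertical bars the SD of 3 libraries, and each panel has its own axis. In MDTH the 3 high libraries lie above the 3 low ones for Adra1b and Adra1d and below them for Adra2a and Adra2c.

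Marker genes of several cell types differed between the same MDTH libraries. The summed level of 10 thalamic relay markers was 218445 to 253732 normalized counts in high and 123787 to 165939 in low libraries. Of these, 5 were higher, among them Slc17a6 (a glutamate transporter, 0.60, adjusted p = 0.00547), and 2 lower in high performers, among them Tcf7l2 (a transcription factor, -0.49, adjusted p = 0.0186). The summed level of 9 habenular markers was 1606 to 2139 in high and 5001 to 31077 in low libraries, with 0 higher and 5 lower in high performers. The same sum was 6861 to 10153 in PFC and 9363 to 13717 in HPF libraries, so it does not measure habenular content alone. Pou4f1, a transcription factor of habenular neurons, held 10.4, 54.2 and 31.1 in high and 169, 1335 and 3105 in low libraries (-5.03, adjusted p = 0.0172), and Gpr151, also habenular, 147, 1298 and 689 against 825, 1946 and 3775 (-1.84, adjusted p = 0.152). The sum of 10 inhibitory neuron markers was 14756 to 15640 in high and 14104 to 32514 in low libraries, the highest value being low replicate 1. Of these markers 1 was higher and 4 were lower in high performers, with a median log2 difference of -1.62. The sum of 9 cortical excitatory neuron markers was 30649 to 37059 in high and 19474 to 27595 in low libraries, without overlap, and 1 was higher and 0 lower by limma. Dopamine neuron markers summed to 3028 to 4365 in high and 4351 to 10673 in low libraries, and striatal projection neuron markers to 12403 to 16298 and 16853 to 17903. The defining markers of noradrenaline neurons were near 0, with Dbh at most 6.58 and Slc6a2 at most 7.92 normalized counts in any MDTH library. The part of the relay, habenular, inhibitory, cortical, dopamine neuron and striatal markers in the receptor differences was not tested.

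**Figure D4:**
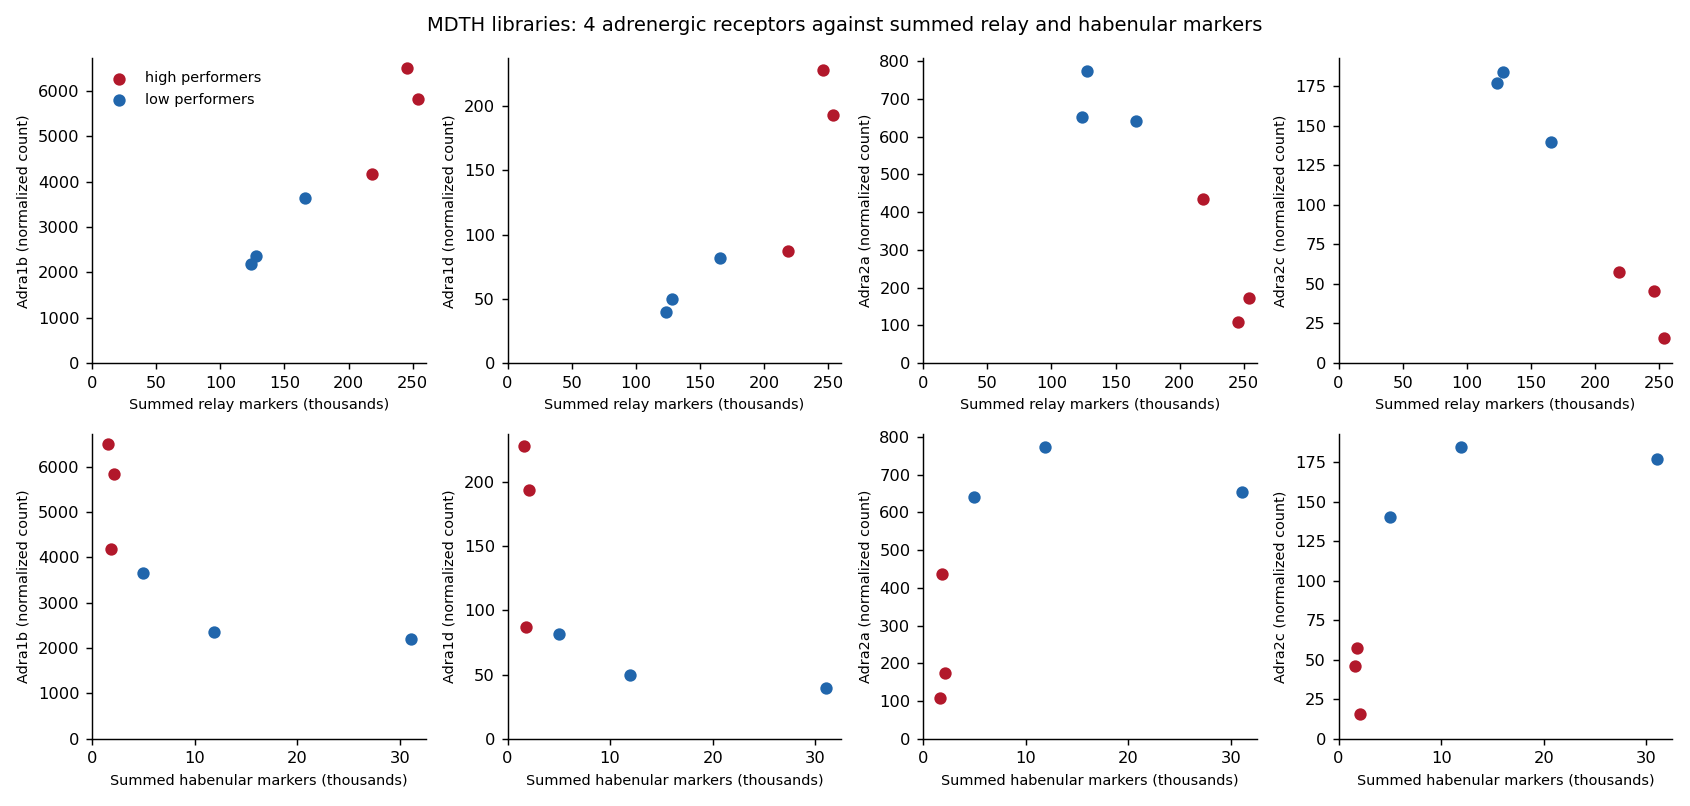
Normalized counts of Adra1b, Adra1d, Adra2a and Adra2c in the 6 MDTH libraries against the summed level of 10 thalamic relay markers (upper row) and 9 habenular markers (lower row) (axes scaled to kilo-counts). High libraries sit at relay sums of 218445 to 253732 and habenular sums of 1606 to 2139, apart from the low libraries on both scales. PFC and HPF libraries, not drawn, have habenular sums of 6861 to 13717.

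In PFC, none of the 9 members tested passed limma's test and none had an unadjusted p below 0.05, a level that 24.1% of all genes reached. Of the 17991 genes tested, 5.85% passed (3.22% higher and 2.63% lower). Drd4 was under the filter on low values there. Adra2c was the only member without overlap, against 30.9% of all genes (17.2% with high and 13.8% with low libraries above), at 491, 452 and 446 normalized counts in high and 415, 302 and 393 in low libraries. Its log2 difference was 0.34 (SE 0.17, adjusted p = 0.273). Adra2a, which many studies of prefrontal function address, held 616, 346 and 659 in high and 551, 1374 and 789 in low libraries, a log2 difference of -0.70 with a 95% interval from -1.58 to 0.19. Drd1 held 1081, 1148 and 1422 in high and 815, 1224 and 883 in low libraries (0.33, 95% interval -0.10 to 0.77). The other members had log2 differences between -0.33 (Adrb1) and 0.50 (Adra1d), and the median of the 9 was 0.14 beside -0.0089 for all genes. No member passed when any 1 PFC library was left out, those with high choroid plexus levels included.

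In HPF, none of the 10 members passed, and 2 had an unadjusted p below 0.05, as did 13.3% of all genes tested. Only 0.0166% of the 18082 genes tested passed in HPF, 3 genes in all (0.0111% higher and 0.00553% lower). Drd5 held 1036, 783 and 1012 normalized counts in high and 688, 661 and 672 in low libraries. All high libraries lay above all low ones, and the log2 difference was 0.47 (SE 0.13, unadjusted p = 0.00913, adjusted p = 0.243). Adra1d held 2157, 1791 and 1279 in high and 2855, 2944 and 2096 in low libraries, overlapping through high replicate 1 and low replicate 3 (-0.61, SE 0.21, unadjusted p = 0.0238, adjusted p = 0.315). Adrb1 was the second member without overlap, at 645, 609 and 717 against 581, 498 and 579 (0.25, SE 0.13, adjusted p = 0.448). Non-overlapping groups were found for 20.0% of all genes, 8.47% with high and 11.6% with low libraries above. Adra1b held 109, 285 and 95.8 in high and 83.6, 107 and 89.4 in low libraries. Its log2 difference of 0.63 (adjusted p = 0.562) was 0.14 without high replicate 2, the library with thalamic and choroid plexus markers. The median over the 10 members was 0.35, beside -0.0071 for all genes. Only the lane 4 pair held a library of each class. Within it, high minus low was 0.59 for Drd5, -0.71 for Adra1d, 0.31 for Adrb1 and 0.10 for Adra1b. It was 0.88 for Adra1a, 0.73 for Adra2c and 0.52 for Adra2a, and -1.91 for Drd4 and -1.58 for Drd2. Drd1 stood at -0.04 in that pair, against 0.61 (SE 0.28, adjusted p = 0.402) in the limma fit to all HPF libraries. A fit with a lane term takes its high minus low difference from the lane 4 pair alone, so it adds nothing to that pair's values.

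**Figure D5:**
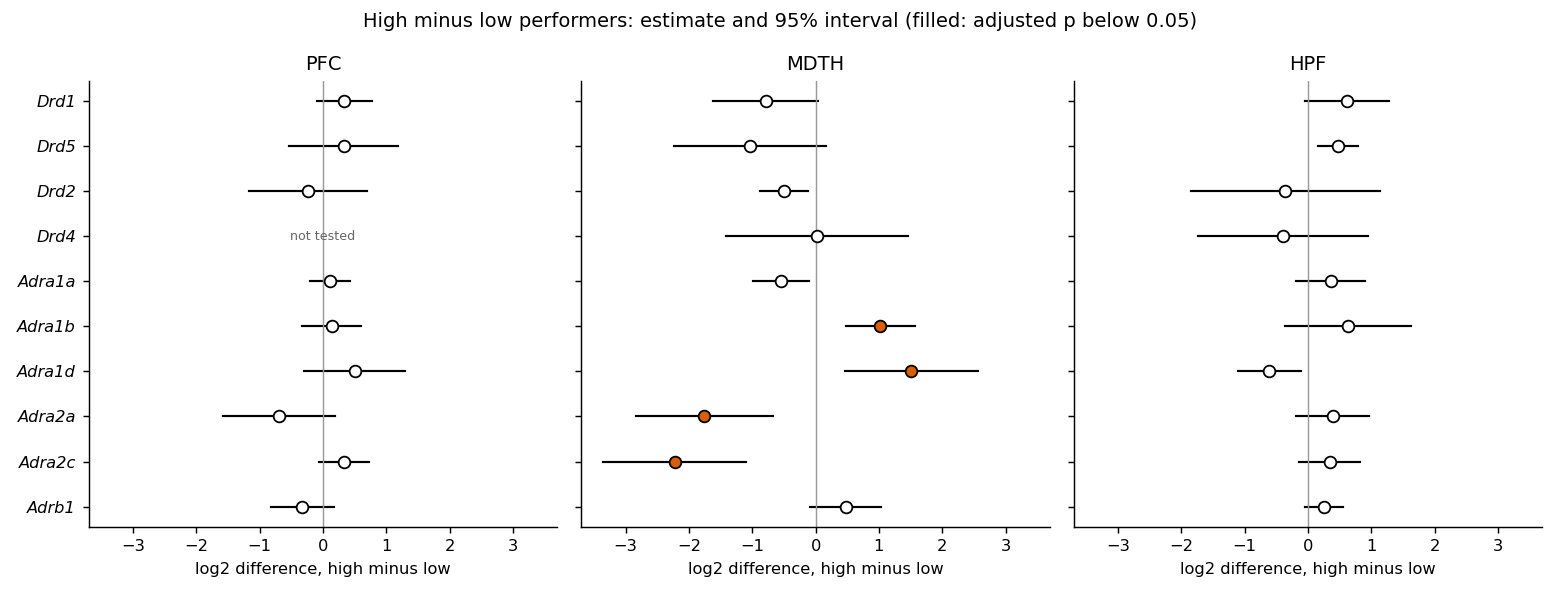
Log2 difference, high minus low performers, with its 95% interval for each receptor in PFC, MDTH and HPF; filled points have an adjusted p below 0.05. Filled points are Adra1b and Adra1d (right of 0) and Adra2a and Adra2c (left of 0) in MDTH, and Drd4 was not tested in PFC.

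An interaction term compared the high minus low difference of each tissue with that of another. Between MDTH and PFC, Adra2c alone passed, where 3.41% of all genes did (0.871% with a positive and 2.54% with a negative interaction). Its high minus low difference was 2.56 lower in MDTH than in PFC (interaction -2.56, SE 0.48, adjusted p = 0.00923). Between MDTH and HPF 5 members passed, 1 positive and 4 negative, against 19.0% of all genes (10.5% positive and 8.52% negative). They were Adra2c at -2.56 (SE 0.48, adjusted p = 0.00220), Adra2a at -2.15 (SE 0.60, adjusted p = 0.0211), Drd1 at -1.40 (SE 0.43, adjusted p = 0.0324), Adra1a at -0.91 (SE 0.27, adjusted p = 0.0299) and Adra1d at 2.12 (SE 0.54, adjusted p = 0.0126). In the same fit to all 18 libraries, the difference within MDTH was -0.79 for Drd1 (adjusted p = 0.0630) and -0.55 for Adra1a (adjusted p = 0.0436). Adra1b did not pass in an interaction, at 0.89 for MDTH against PFC (adjusted p = 0.394) and 0.39 for MDTH against HPF (adjusted p = 0.612). Between HPF and PFC 0 of 10 members passed, Drd4 included, where 9.14% of all genes did (3.37% positive and 5.77% negative). No member had an unadjusted p below 0.05 in that interaction, a level that 24.0% of all genes reached. These comparisons share libraries, and those with HPF also set different lanes and depths side by side. Within HPF, Drd1 was at 0.61 over all libraries and at -0.04 in the lane 4 pair. With the name number as a block, Drd1 alone passed between MDTH and HPF (-2.51, adjusted p = 0.0185). For low performers that blocked value rests on a single pair of libraries, those with number 163, so it is not firmer than the others. The blocked values were -2.81 for Adra2c (adjusted p = 0.0743), -1.80 for Adra2a (0.150), -1.29 for Adra1a (0.0526) and 2.39 for Adra1d (0.0926), and -2.14 for Adra2c between MDTH and PFC (0.537).

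Receptors of the same families outside the 10 included Adra2b, Drd3 and Adrb3. In MDTH, Adra2b was higher as given above. Adrb3, a beta receptor best known from fat tissue, held 3.04, 8.86 and 2.94 normalized counts in high and 25.2, 22.0 and 20.9 in low libraries. It was above the filter on low values through the low libraries alone, so no test is given. Adrb3 overlaps the antisense gene Gm45470 and is uncertain to that extent. Drd3, a D2-like receptor, did not pass in MDTH, at 0.53 (adjusted p = 0.486). Drd3 held 12.4 to 43.0 normalized counts in MDTH and at most 2.28 in PFC. Adrb3 did not pass in PFC (0.34, adjusted p = 0.567) or in HPF (0.93, adjusted p = 0.450).

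Of 59 genes that make, clear or relay catecholamine signals, 54 had a mean of at least 10 in both MDTH groups, and 14 of these were higher and 13 lower in high performers, beside the 25.0% of all genes that passed. Among 6 tested genes of catecholamine synthesis, 1 was higher and 3 were lower. Th, the enzyme that makes dopa from tyrosine, held 7.32, 14.0 and 27.9 normalized counts in high and 186, 120.3 and 103 in low libraries, without overlap (-3.12, SE 0.51, adjusted p = 0.00802). Ddc, which turns dopa into dopamine, was lower as well (-2.70, adjusted p = 0.0218), and Qdpr, which regenerates the cofactor of Th, was higher (0.59, adjusted p = 0.00700).

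Of 8 such genes of transport and breakdown in MDTH, 1 was higher and 2 were lower. Slc6a3, the dopamine transporter of dopamine neurons, held 0, 5.26 and 2.62 in high and 23.1, 105 and 117 in low libraries, and was left out of that count because its mean in high libraries was under the filter. Slc29a4, a low-affinity monoamine transporter, was lower (-2.63, adjusted p = 0.00278), and Slc22a3, another such transporter, higher (1.69, adjusted p = 0.00488). Slc6a2, the noradrenaline transporter, was at 0 in all 3 high libraries and in 2 low libraries and was not tested. Dbh, which makes noradrenaline, was at most 6.58 in MDTH, 8.71 to 15.7 in PFC and 65.8 to 152 in HPF. As background, the transcripts of Slc6a3, Slc6a2 and Dbh are made mainly in the cell bodies of catecholamine neurons.

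Of the 11 G protein genes 4 were higher and 2 lower in MDTH high performers. Gnai1 was higher and Gnai2 lower, both subunits through which D2-like and alpha-2 receptors lower cyclic AMP (0.61, adjusted p = 0.00494, and -0.76, adjusted p = 0.00720). Of 13 genes of receptor desensitization and G protein shut-off 2 were higher and 3 lower, Rgs2 by -1.27 (adjusted p = 0.00339) and the arrestin Arrb2 by -0.75 (adjusted p = 0.00477). Of 16 receptor partners and effectors 6 were higher and 3 lower. They include Plcb4, the phospholipase C isoform abundant in thalamus, at 36219, 35149 and 47370 normalized counts in high and 20214, 14526 and 14694 in low libraries (1.27, adjusted p = 0.00470). Prkca, a protein kinase downstream of alpha-1 receptors, was lower (-0.95, adjusted p = 0.00363).

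In PFC 1 of 56 tested genes of these lists passed, and 12 had an unadjusted p below 0.05, beside 5.85% and 24.1% of all genes. The gene was Gnao1, the most abundant inhibitory G protein subunit of brain, at 32288, 31342 and 34532 normalized counts in high and 50712, 47451 and 47975 in low libraries (-0.57, SE 0.08, adjusted p = 0.0173). Gnao1 was also lower in MDTH (-0.58, SE 0.10, adjusted p = 0.00981). In HPF it had a log2 difference of -0.28 (SE 0.11, adjusted p = 0.344). There limma passed 0 of 57 tested genes of these lists, with 13 at an unadjusted p below 0.05, beside 13.3% of all genes.

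The genes whose levels ran most like a receptor's over the 18 libraries were found by Pearson's r of log2(normalized count + 1) among 18254 genes, as a description that mostly reflects the 3 tissues. For Adra1b they were Adgra1 (r = 0.991), Kcnk3 (0.991) and Trhr2 (0.987), for Adra1d Chn1 (0.980), Arhgef2 (0.978) and Zbtb18 (0.975), and for Adra2c Trpc4 (0.974), Psd (0.971) and Wscd2 (0.969). Drd1 ran most like Glt8d2 (0.971), Drd2 like Fzd10 (0.935), Drd5 like Hoga1 (0.915), Adra1a like Atp8b1 (0.965), Adra2a like Pold3 (0.895) and Adrb1 like Plxdc1 (0.936). Drd4, close to 0 in many libraries, reached 0.802 with Fbxw10. Among the members themselves, r was 0.853 for Adrb1 with Adra1b, -0.848 for Drd2 with Drd1 and -0.808 for Adra2c with Adra1b, all over the same 18 libraries.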

How the data were processed

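RNA of 18 libraries was sequenced after stranded TruSeq mRNA preparation, per the labels. The deposited signal is a normalized count for each gene in each library, scaled by the authors; its scaling factors, genome build, annotation and strand setting are not given in the sources used here. DESeq2, Salmon and STAR appear as tools, with no version, per the submitters' processing notes. The table lists 48440 genes, 17137 of them at 0 throughout. Library names matched all 18 columns to samples. Of the gene identifiers 99.2% were in GENCODE M21 (GRCm38).

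Depth was estimated by taking the most frequent low value as 1 read (0.573 to 1.34 normalized counts). Only 23.0% to 69.7% of low values were whole reads within 0.02, so count tests were not run. The depth limits low genes such as Drd4.

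Values were taken as log2(normalized count + 1), which understates changes of low genes, and genes with a mean of at least 10 were kept. Genes under that mean in 1 of the groups compared were left out of counts over members and pathway lists, except where Drd4 is said to be included. The shares of all genes set beside these counts still include such genes, so the filters are not the same. Limma 3.58.1 in R 4.3.3, two-sided with a mean-variance trend, compared 3 high with 3 low libraries in each tissue, and 6 group means in 1 fit to 18 libraries for tissue differences and interactions. P-values were Benjamini-Hochberg adjusted over all genes tested, and an adjusted p below 0.05 is called passing. Every adjusted p comes from limma. Unless stated otherwise, values in parentheses after a gene are log2 differences, high minus low. Exon lengths per gene are unions of GENCODE exons. Python 3.11.15 with pandas 2.3.3, numpy 2.4.6 and matplotlib 3.10.9 prepared tables and figures. The high versus low fits were also run on simulated counts with the same spread setting for every gene and independent libraries. That run does not show how the fits behave at the spread of these data.

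The numbers in library names recur across tissues. Deviations of libraries that share one correlated at 0.346 to 0.611 in all 11 pairs, so a fit with this block was set beside the tissue results and interactions. The titles number the performers within each group, and each library of a group carries its own name number. No label states outright that libraries of one group are from different animals. If they are not, p-values reflect only library-to-library spread, which may be technical. Alternatives covered pseudocounts of 0.5 and 10, no filter or a mean of 50, other scalings, no trend, blocks, lanes and each library left out.

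The members, gene lists and tests were chosen with earlier results of these data known. Named are all 10 members, other receptors of the families (1 is not reported here), Th, Dbh, Slc6a3 and Slc6a2, the 2 genes with the smallest p of each pathway list and tissue, the first 2 genes of marker lists described and the 3 genes most alike in pattern, each given where it bears on a described result.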

Additional observations from a re-analysis of the deposited data

Results flagged for a closer look

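The high minus low difference of 5 of the 10 receptors differed between tissues by limma's interaction test. Many genes outside these families passed too. Between MDTH and HPF all 5 passed, where 19.0% of all genes did. Between MDTH and PFC Adra2c alone passed, where 3.41% of all genes did. Adra2c differed between MDTH and PFC (-2.56, SE 0.48, adjusted p = 0.00923) and between MDTH and HPF (-2.56, SE 0.48, adjusted p = 0.00220). For Adra2c, high libraries lay below all low libraries in MDTH, as for 22.0% of all genes there. In PFC they lay above all low libraries, as for 17.2% of all genes there. The PFC difference of Adra2c did not pass limma's test (0.34, SE 0.17, adjusted p = 0.273). Between MDTH and HPF the interaction was -2.15 for Adra2a (SE 0.60, adjusted p = 0.0211), 2.12 for Adra1d (SE 0.54, adjusted p = 0.0126), -1.40 for Drd1 (SE 0.43, adjusted p = 0.0324) and -0.91 for Adra1a (SE 0.27, adjusted p = 0.0299). Within HPF, high minus low of Drd1 was 0.61 over all libraries and -0.04 in the lane 4 pair. The same pair gave 0.88 for Adra1a, 0.52 for Adra2a, 0.73 for Adra2c and -0.71 for Adra1d. Drd1 was lost without MDTH high replicate 3, MDTH low replicate 2, HPF high replicate 1 or 3, or HPF low replicate 1 or 2 (adjusted p of 0.0604 to 0.0865). Adra1a was lost without any 1 of 7 libraries (adjusted p of 0.0541 to 0.0753), and Adra2a without MDTH high replicate 2 or 3 (0.0501 and 0.0522). Adra1d and Adra2c passed in all 12 such fits, but not with the name number as a block (adjusted p of 0.0926 for Adra1d, and of 0.0743 and 0.537 for Adra2c against HPF and PFC).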

How the results depend on the processing

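All alternatives kept the direction of every member that passed. With 3 libraries a group, leaving out 1 library moved most counts. Members passing in MDTH ranged from 0 to 6, without low replicate 2 or 3 and without high replicate 1, and members passing the interactions from 1 to 2 (MDTH and PFC) and 2 to 6 (MDTH and HPF). Members passing for HPF against PFC ranged from 7 to 9, Drd4 included. The count of genes passing ran from 7 to 1306 for PFC, from 1839 to 4223 for MDTH and from 0 to 15 for HPF. In PFC, 52 genes passed without the trend and 2529 with all 18 libraries in 1 fit. In MDTH, 1 member passed without the trend. In HPF, 6 genes passed with a pseudocount of 0.5, 11 without the filter, 10 with equal totals, 7 with quantile normalization and 265 with all 18 libraries in 1 fit. The interaction between MDTH and HPF held 3 members with quantile normalization, and HPF against PFC held 5 among high performers only.

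The replicate numbers of high and low libraries do not pair them: deviations correlated at -0.127 to 0.0923. With that number as a replicate block, 0 genes passed in PFC, 2425 in MDTH and 0 in HPF, and 1 member (Adra2c) in MDTH. With the name number as a block, 3 members passed for HPF against PFC, 0 the interaction between MDTH and PFC and 1 that between MDTH and HPF. The blocks changed no other call of a member beyond those given in the report, except in MDTH those of Adra1b (adjusted p = 0.0667), Adra1d (0.109) and Adra2a (0.0524).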
